A study of Mus musculus with 24 samples.

Results

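The cells compared were 2 sorted populations of adipose progenitors from male mice: the gonadal population labelled FIP (M_FIP) and the inguinal population labelled DPP4_pos (M_DPP4_pos). Each was measured by bulk RNA sequencing in 3 libraries, which makes 6 of the 24 libraries of the study. Of the 27179 genes in the table, the comparison used the 12891 named genes whose normalized value was at least 10 in at least 3 of the 6 libraries. This filter let in 339 genes that stayed under 10 in all 3 M_DPP4_pos libraries and at or above 10 in all 3 M_FIP libraries, and 235 genes in the reverse case, whose groups could not overlap. The genes nearest to the filter had a third-highest value of 10.2 inside it (Slc25a34 and Gm5563) and 9.91 outside it (Havcr2 and Ercc6l).

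Both groups were C57BL/6 males of unstated age, and both were sorted as PDGFRb-positive cells; no genetic or drug treatment was named for either. M_FIP cells came from gonadal white fat, the intra-abdominal depot next to the testis and epididymis, and M_DPP4_pos cells from inguinal white fat, a subcutaneous depot. The other 6 groups of 3 libraries were the same 2 populations in females (F_FIP and F_DPP4_pos) and the partner populations of each depot in both sexes, labelled APC (gonadal) and DPP4_neg (inguinal). Every difference below is one of depot and of sorted population at once, and these cannot be told apart. The gates that defined FIP are not given in the sources used here, and nothing in the labels ties replicates to separate mice, so the p-values reflect only how far these libraries differ, which may be technical spread.

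PDGFRb is a platelet-derived growth factor receptor carried by perivascular mesenchymal cells, some of which become fat cells. In the literature FIP stands for fibro-inflammatory progenitor, a gonadal PDGFRb-positive cell that forms fat poorly and produces collagen and inflammatory mediators. DPP4-positive cells lie in the connective tissue sheath around subcutaneous fat and are regarded as early progenitors, upstream of committed preadipocytes. Neither is regarded as the committed preadipocyte of its depot, and setting them side by side asks which genes separate such populations of different depots.

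Each deposited value is a normalized read count, scaled by a size factor of its library. Reads assigned to genes ranged from 13114690 to 15477738 in the M_FIP libraries and from 14040155 to 15011105 in the M_DPP4_pos libraries, and replicates of a group correlated at 0.991 to 0.994 (Pearson's r of log2 values across genes). The summed normalized values were 1.30 times higher in M_DPP4_pos, and rescaling the libraries to equal totals moved the median log2 fold change of all 12891 genes from 0.0034 to 0.34. The M_DPP4_pos library numbered 1 stood slightly apart from its 2 replicates. Of the 204 genes called over 8-fold higher in M_FIP (1.58%), 78 had a mean of at least 200 there. Among these 78, it held the highest of the 3 M_DPP4_pos values for 65, and their summed value in it was 11.4% of the M_FIP mean, against 7.85% and 6.81% in the other 2 libraries. Without it, 4544 genes were called higher and 4504 lower. The labels matched the sexes: Ddx3y, on the Y chromosome, averaged 2264 in M_FIP and 3114 in M_DPP4_pos, and Xist, transcribed from the inactive X chromosome of females, averaged 3.63 and 4.14, against 13112 to 16835 in the female groups.

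Genes were tested with limma on log2(value + 1). Those called had a p under 0.05 after adjustment over all 12891 genes by the method of Benjamini and Hochberg. The 2 populations differed across much of the transcriptome: 9584 genes were called (74.3%), of which 4680 were higher (36.3%) and 4904 lower (38%) in M_FIP. Past a 2-fold change, 1693 genes were higher (13.1%) and 1484 lower (11.5%). At equal library totals the calls were 7534 higher (58.4%) and 2839 lower (22%), so the direction of small differences depended on the scaling. The 3 M_FIP libraries did not overlap the 3 M_DPP4_pos libraries for 9942 genes (77.1%). Counts of a gene group below are read against these shares, and a group's median against the median of all genes. Such counts include genes under 10 in every library of 1 group, whose direction the filter had fixed.

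The genes that were highest in M_FIP relative to M_DPP4_pos were led by a pair of transcription factors of the coelomic lining and its mesenchyme. Tcf21 (chr10:22817263-22820143), a basic helix-loop-helix factor that keeps visceral mesenchymal cells undifferentiated, had values of 3037, 3047 and 3009 in M_FIP and 49.7, 6.92 and 6.61 in M_DPP4_pos. The M_FIP libraries lay close together, and the only M_DPP4_pos value above 10 was in library 1. The log2 fold change was 7.71 ± 0.48 (SE; limma, adjusted p = 1.32e-09), and 8.61 without that library. Wt1 (chr2:105126529-105173614), the Wilms tumour zinc-finger factor that marks visceral fat progenitors and mesothelium, had values of 3634, 3536 and 3473 in M_FIP and 52.0, 19.6 and 15.4 in M_DPP4_pos, without overlap. Its log2 fold change was 7.08 ± 0.28 (limma, adjusted p = 6.82e-12). The neighbouring antisense transcript Wt1os averaged 105 ± 21.2 (SD, n = 3) in M_FIP from 356 reads, and M_DPP4_pos held 2 reads. Wt1os passed the filter through M_FIP alone. The strand setting of the counting was not given, so Wt1os cannot be separated from Wt1 reads with certainty.

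A desmosomal protein and a plasma protein were also among the 15 genes with the largest increase. Dsp, the desmosomal linker desmoplakin, had values of 314, 291 and 282 in M_FIP and 1.13, 2.31 and 2.20 in M_DPP4_pos. Hp, the haemoglobin-binding plasma protein haptoglobin, had values of 3782, 3475 and 3834 in M_FIP against 205, 47.3 and 29.7, again with library 1 highest among the M_DPP4_pos libraries, and its log2 fold change of 5.78 ± 0.44 became 6.58 without that library. Further genes were Cadps and Amph, of vesicle release and endocytosis, Kcnk2, a potassium channel, Ptk7, a WNT co-receptor, Enpp6, a choline-releasing phosphodiesterase, Mgam, a glucosidase, Lrrn2 and Mrvi1. Their log2 fold changes ran from 5.08 ± 0.37 (Amph) to 7.08 ± 0.43 (Cadps). Leaving out M_DPP4_pos library 1 or 3 moved the fold of 4 of these by over 1.5 times without ending a call: without library 1 and without library 3, the log2 values were 7.72 and 6.49 for Cadps, 7.18 and 5.37 for Ptk7, and 5.98 and 4.17 for Mrvi1, while Amph went to 4.45 without library 3. Dsp, Cadps, Enpp6 and Mgam stayed under 10 in every M_DPP4_pos library, so the filter had fixed their direction and their values are a description.

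**Figure D1:**
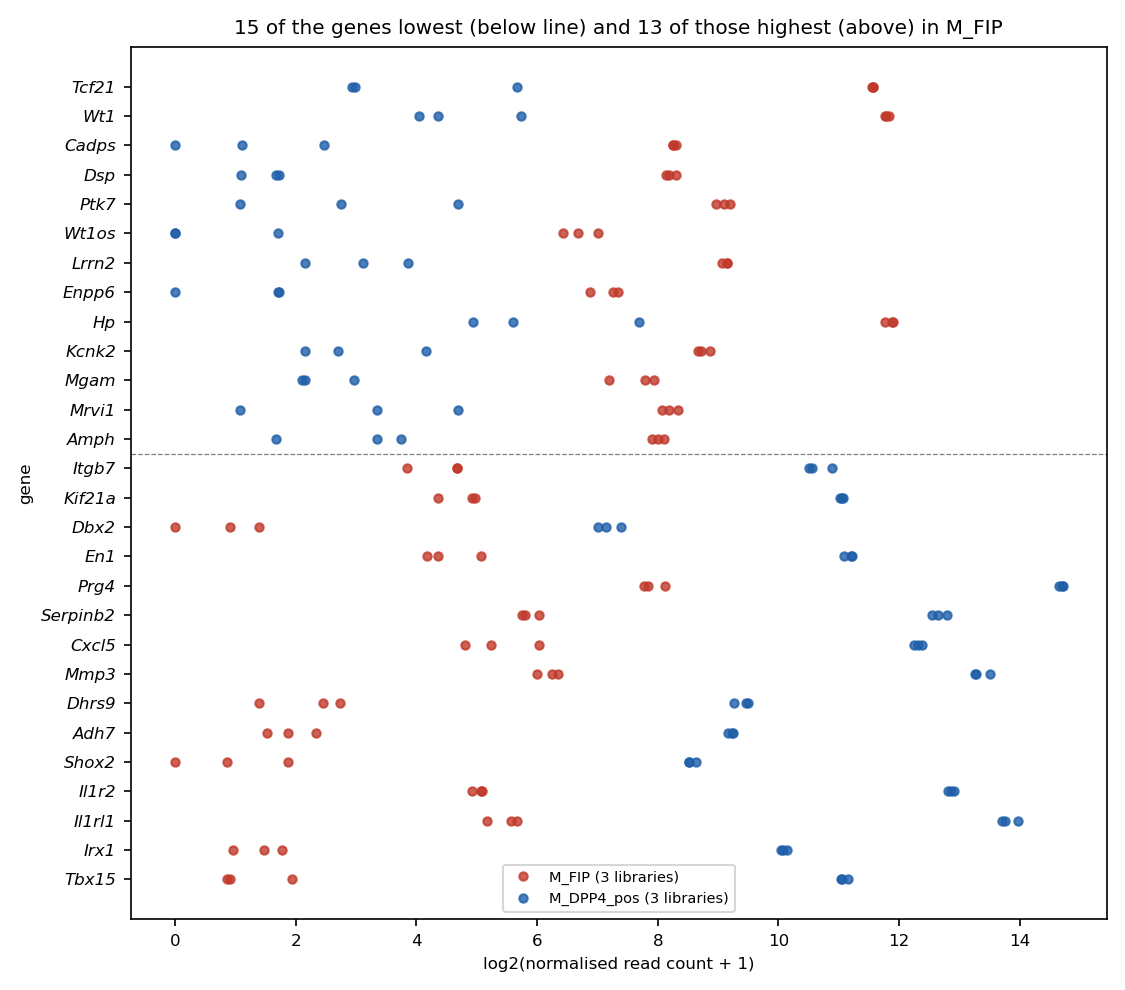
Normalized values of 13 of the genes with the largest increase and the 15 with the largest decrease in M_FIP relative to M_DPP4_pos, on a log2(value + 1) axis, with 1 point per library. The 3 libraries of a group lie close together for genes that are high in that group, while the low values of Tcf21, Hp and Ptk7 spread out, with M_DPP4_pos library 1 above the other 2.

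The genes lowest in M_FIP were led by transcription factors of limb and body wall. Tbx15 (chr3:99240348-99354260), a T-box factor of subcutaneous mesenchyme, had values of 2.83, 0.892 and 0.813 in M_FIP and 2123, 2093 and 2281 in M_DPP4_pos. This was the largest decrease among the named genes, with a log2 fold change of -9.84 ± 0.23, and the gene passed the filter through M_DPP4_pos alone. Irx1 (chr13:71958232-71963723), an Iroquois homeobox factor, had values of 0.945, 1.78 and 2.44 in M_FIP and 1050.1, 1075 and 1127 in M_DPP4_pos. Shox2, a homeobox factor of proximal limb growth, was at 0, 2.68 and 0.813 in M_FIP and at 397, 365 and 367 in M_DPP4_pos. M_FIP thus held at most 3 reads of any of these 3 factors in a library. En1, the engrailed factor that marks a fibroblast lineage of the back skin, differed from them in having a measurable level in M_FIP, with values of 17.0, 19.6 and 32.5 against 2344, 2173 and 2370.0. Dbx2, another homeobox gene, had 3 reads in M_FIP and 384 in M_DPP4_pos, a ratio of 172 with a 95% exact interval of 58.5 to 839.2 that covers counting error only. Irx1, Shox2 and Dbx2 also passed the filter through M_DPP4_pos alone, so their direction was fixed.

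The other 10 genes of this end coded mainly for secreted and immune proteins and for enzymes of alcohol metabolism. Prg4, the joint lubricant lubricin, had values of 229, 276 and 217 in M_FIP and 26753, 26624 and 25663 in M_DPP4_pos. Mmp3, the matrix protease stromelysin, had values of 63.3, 80.3 and 74.8 in M_FIP and 9833, 11556 and 9892 in M_DPP4_pos, a log2 fold change of -7.15 ± 0.08 (limma, adjusted p = 2.02e-17). Both genes were among the more evenly measured of the list, each with an SE under 0.1. Adh7 and Dhrs9, dehydrogenases that act on retinol, had log2 fold changes of -7.29 ± 0.20 and -7.21 ± 0.26. Both stayed under 10 in every M_FIP library, so the filter had fixed their direction. Serpinb2, the plasminogen activator inhibitor of inflamed tissue, Kif21a, a kinesin, and Itgb7, an integrin of lymphocyte homing, had log2 fold changes of -6.80, -6.29 and -6.25. Il1rl1, Il1r2 and Cxcl5 belong to the inflammatory genes described further on.

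The list of positional transcription factors outside the HOX clusters split between the 2 populations. Of 36 tested factors, 14 were called higher and 17 lower in M_FIP, 10 and 14 of them past 2-fold, and at equal library totals the calls were 18 higher and 15 lower. For 10 of them the filter had fixed the direction, because Meox1 stayed under 10 in every M_DPP4_pos library and Tbx5, Tbx15, Shox2, Irx1, Irx2, Irx5, Pitx1, Lhx8 and Six2 in every M_FIP library. The other 26 factors gave 13 higher and 8 lower. Beside Tcf21 and Wt1, the genes that rose in M_FIP included the orphan nuclear receptors Nr2f1 (2.62 ± 0.13) and Nr2f2 (2.65 ± 0.09), the HOX cofactor Meis1 (2.31 ± 0.11), Meox1 (3.51 ± 0.22) and Gata2 (3.26 ± 0.38), all as log2 fold changes. Nr2f2 was at 535, 546 and 573 in M_FIP and 90.4, 80.7 and 90.3 in M_DPP4_pos. Those that fell included the other 3 Iroquois genes of the list, Irx2 (-5.87 ± 0.24), Irx3 (-1.59 ± 0.16) and Irx5, the forelimb factor Tbx5 (-5.78 ± 0.29), the hindlimb factor Pitx1, and Emx2 (-3.33 ± 0.09). Emx2 kept a clear level in both populations, 56.7, 62.4 and 60.9 in M_FIP and 615, 609 and 608 in M_DPP4_pos. Irx5 and Pitx1 each had 3 reads in M_FIP, giving ratios of 59.9 (95% exact interval 20.1 to 294) and 105 (35.6 to 514). Lhx8 had no read in any M_FIP library and averaged 24.1 ± 6.15 (SD, n = 3) in M_DPP4_pos. Osr1, a factor of early mesenchyme, was similar on this scale, at 974, 970.4 and 1056 in M_FIP and 1015, 987 and 977 in M_DPP4_pos (0.01 ± 0.05), but at equal totals it was 0.38 higher in M_FIP. Tbx18 changed sign with the scaling, from -0.27 to 0.11 at equal totals.

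The HOX genes, whose order along each cluster follows the body axis from head to tail, were called in both directions. Of 39 HOX genes, 24 were tested, and 7 had no read in any of the 6 libraries. Among the 18 tested genes of paralog groups 1 to 8, the head-ward end of the clusters, 15 were higher in M_FIP and 1 was lower (Hoxc6, -0.23 ± 0.07, but 0.14 at equal totals), with a median log2 fold change of 1.16. Of these, Hoxa6 and Hoxb5 stayed under 10 in every M_DPP4_pos library and so had to be higher; the other 16 gave 13 higher and 1 lower, with a median of 1.09. Hoxa5 had the largest increase, with values of 309.9, 317 and 367 in M_FIP and 43.0, 32.3 and 33.0 in M_DPP4_pos (3.17 ± 0.13). Hoxb5 (2.93), Hoxa3 (2.24) and Hoxa4 (2.18) followed. Hoxc8, at the centre of its cluster, was at 778, 716 and 692 against 331, 305 and 362.

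Of the 6 tested genes of groups 9 to 13, the tail-ward end, Hoxa9, Hoxa10, Hoxc10 and Hoxc11 stayed under 10 in every M_FIP library. They passed the filter through M_DPP4_pos alone, so their direction was fixed and their values are a description. Hoxc10 (chr15:102966796-102971898) was at 3.78, 8.03 and 3.25 in M_FIP and at 223, 212 and 229 in M_DPP4_pos, a log2 fold change of -5.29 ± 0.26. Hoxc11, its neighbour, had 1 read in the 3 M_FIP libraries and 256 in the 3 M_DPP4_pos libraries, a ratio of 356 with a 95% exact interval of 63.3 to 14110. Hoxa10 was at 1.89, 1.78 and 0.813 in M_FIP and 37.3, 36.9 and 35.2 in M_DPP4_pos, and Hoxa9 averaged 1.49 ± 1.42 (SD, n = 3) and 19.2 ± 3.92. The other 2 genes were measured in both groups. Hoxc9 averaged 86.2 against 121, a log2 fold change of -0.48 ± 0.14 that was -0.09 and no longer called at equal totals. Hoxd9 did not pass the test, at 0.57 ± 0.26 (limma, adjusted p = 0.0626), but it was called higher at equal totals (0.54) and by edgeR on recovered reads (0.66). Neighbouring genes of a cluster are not independent of each other.

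**Figure D2:**
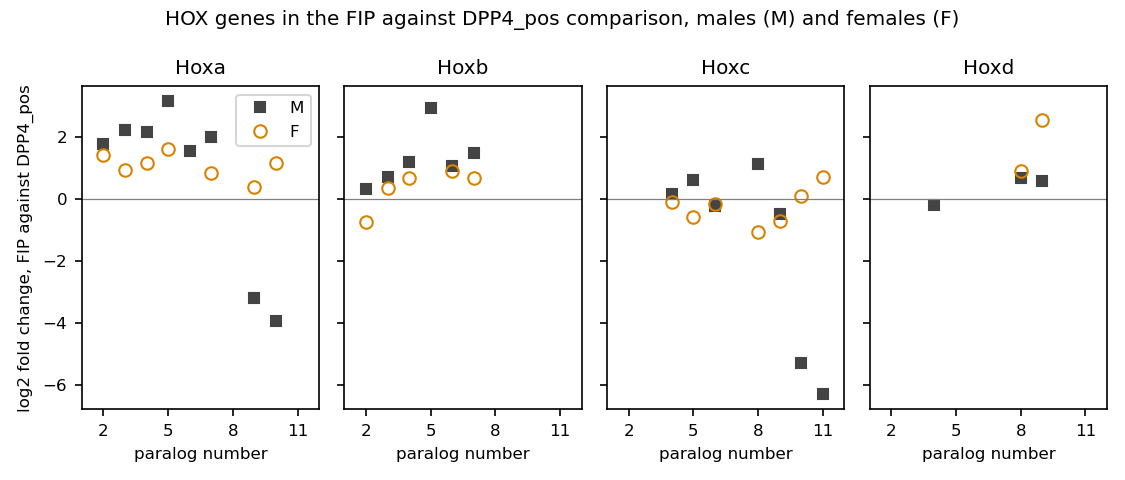
Log2 fold change of each tested HOX gene (gonadal FIP minus inguinal DPP4_pos) against its paralog group number, for males (squares) and females (open circles). In males, groups 2 to 8 lie above 0 except Hoxc6 and Hoxd4, and Hoxa9, Hoxa10, Hoxc10 and Hoxc11 below 0, down to -6.32; the female values of these 4 genes lie above 0, and of them Hoxa10 was called.

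Markers of interstitial progenitors, a cell type that Dpp4 marks, were mostly lower in M_FIP but present in both populations. Of 16 markers, 13 were called lower and 2 higher (10 and 4 at equal library totals), with a median log2 fold change of -0.84. Dpp4, the surface peptidase of the inguinal gate, was at 5096, 4880.4 and 4483 in M_FIP and at 14883, 15348 and 16085 in M_DPP4_pos. It was called lower (-1.68 ± 0.06), the groups did not overlap, and no library was near 0. The inguinal gate itself favours this direction, and Dpp4 is counted among the 13 lower markers. Pi16, a peptidase inhibitor of universal fibroblasts, was at 16023, 16134 and 13617 against 69151, 67269.8 and 79305. Wnt2, a WNT ligand, had the largest decrease of the list, at 56.7, 98.1 and 68.3 in M_FIP and 1830.1, 2049 and 1956 in M_DPP4_pos (-4.73 ± 0.14). Cd55, a complement regulator chosen after its values were seen, averaged 9713 ± 284 and 9135 ± 799 and was not called (0.09 ± 0.06). The labelled receptor Pdgfrb averaged 2909.7 ± 231 in M_FIP and 2294 ± 189.5 in M_DPP4_pos, and the fibroblast receptor Pdgfra 12654 ± 436 and 6728 ± 431. Ly6c1, a surface antigen with near-identical gene copies, fell by 2.08 on the log2 scale, while the tetraspanin Cd9 averaged 1791 and 1823 (-0.03 ± 0.06, but 0.35 at equal totals).

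Markers of committed preadipocytes were mostly higher in M_FIP: 11 of 16 were called higher, all past 2-fold, and 3 lower, with a median of 1.54. Sparcl1, a matricellular protein, was at 8530.0, 9006 and 9149 in M_FIP and at 769.8, 465 and 444 in M_DPP4_pos, a log2 fold change of 4.03 ± 0.14. Fabp4, the fatty acid carrier of adipocytes, was at 3626, 4217 and 3692 against 610.4, 469 and 447 (2.93 ± 0.09), and the fatty acid transporter Cd36 at 2402, 2448 and 2043 against 299.6, 248 and 238 (3.13 ± 0.09). M_DPP4_pos library 1 was again the highest of its group for these 3 genes. Pparg, the master regulator of fat cell formation, was chosen after its values were seen and averaged 161 ± 27.3 in M_FIP and 50.4 ± 3.35 in M_DPP4_pos (1.65 ± 0.14). The members that were lower were the adhesion molecules Icam1 and Vcam1 and the transferase Mgst1. Cebpa, a factor of fat cell formation, averaged 579 ± 44.0 and 588 ± 47.9 (-0.02 ± 0.07, not called); these 4 were also chosen after their values were seen.

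Genes of cholesterol synthesis and uptake were higher in M_FIP in 15 of 20 cases and lower in none, 8 of them past 2-fold. Dhcr7, a reductase of the last steps of the pathway, had the largest increase among the list's members: it was at 133, 159.6 and 155 in M_FIP and 29.4, 32.3 and 25.3 in M_DPP4_pos, without overlap (2.33 ± 0.15). Lss, the enzyme that forms lanosterol, had a log2 fold change of 1.47. Genes of fatty acid and triglyceride metabolism gave 11 higher and 3 lower of 19, led by the carrier Fabp5 (2.25 ± 0.37) and the phosphatidate phosphatase Lpin1 (1.85 ± 0.13). Markers of mature adipocytes summed to 350.5 to 411 in M_FIP and 203 to 323 in M_DPP4_pos, and 5 of 7 tested were higher. In bulk samples fewer cells of a type and less RNA per cell cannot be told apart, and the part of adipocytes in the lipid results was not tested.

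Among signalling pathways, the hedgehog genes were the only list of these with every tested member called in 1 direction. All 10 were higher in M_FIP on both scalings, with a median of 0.88. Gas1, a co-receptor, was at 5491, 5497 and 5511 in M_FIP and at 998, 906 and 942 in M_DPP4_pos (2.54 ± 0.05). Gli2, the main transcriptional activator of the pathway, was at 295, 279 and 281 against 56.5, 46.1 and 47.4 (2.49 ± 0.12). The co-receptors Boc and Cdon rose by 1.61 ± 0.06 and 1.23 ± 0.06.

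WNT and BMP genes moved in both directions. Of 21 WNT ligands, antagonists and R-spondins, 10 were higher and 9 lower. The filter had fixed the direction of 2, Wnt4 and Wnt16, and the other 19 gave 9 higher and 8 lower. Wnt2, the antagonist Dkk2 (-3.93 ± 0.09) and Wnt16 (-3.39 ± 0.40) were lower in M_FIP, and Wnt4 was higher with 71 reads against 3, a ratio of 18.4 (95% exact interval 6.05 to 91.4). Of 25 genes of the BMP, TGF-beta and activin families, 11 were higher and 12 lower (13 and 9 at equal totals). The filter had fixed the direction of 3, Bmp3 and Bmp5 among them, and the other 22 gave 9 higher and 11 lower. The secreted BMP antagonist Chrdl1 was at the low end, at 87.9, 101 and 94.3 in M_FIP against 4843, 5737 and 4885 in M_DPP4_pos. The ligand Bmp3 averaged 4.96 ± 0.647 against 288 ± 37.2, while Bmp5 went the other way, with 109 reads in M_FIP and 3 in M_DPP4_pos.

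The insulin-like growth factor (IGF) axis showed opposite changes in its extracellular regulators. Pappa, the protease that frees IGF by cutting its binding proteins, was at 178, 239.9 and 231 in M_FIP and 19.2, 5.77 and 3.30 in M_DPP4_pos (4.68 ± 0.39, and 5.32 without M_DPP4_pos library 1). The binding protein Igfbp5 was at 5017, 5092 and 4642 against 54778, 57906 and 58624 (-3.54 ± 0.05), and Igfbp3 fell by 2.89 on the log2 scale. Of the 13 tested genes of the axis 5 were higher and 5 lower (7 and 4 at equal totals). Among fibroblast growth factors, Fgf1 was at 854, 813 and 878 in M_FIP and 27.1, 24.2 and 29.7 in M_DPP4_pos (4.93 ± 0.10), and Fgf10 rose by 2.10 ± 0.12, whereas Fgf7 and the receptor Fgfr1 fell by 2.61 and 1.98. The list gave 4 higher and 6 lower of 12 (6 and 4 at equal totals).

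Retinoid genes gave 5 higher and 6 lower of 14 (8 and 4 at equal totals), with a split inside the pathway. Aldh1a2, an enzyme that makes retinoic acid, was at 257, 267 and 294 in M_FIP and 27.1, 17.3 and 9.91 in M_DPP4_pos (3.94 ± 0.25), without overlap. Cyp26b1, which degrades retinoic acid, fell by 2.51, and the receptor Rarg by 1.32. Aldh1a3, a related synthetic enzyme, averaged 3378 and 3097. Among 13 neurotrophic factors and receptors, 7 were higher and 5 lower, all past 2-fold. For 4 of them, Gdnf and Gfra1 included, the filter had fixed the direction, and the other 9 gave 6 higher and 2 lower. Gdnf, the glial cell line-derived neurotrophic factor, was at 7.56, 8.03 and 4.88 in M_FIP and 486, 446 and 503 in M_DPP4_pos (-5.96 ± 0.18), and its co-receptor Gfra1 had 2 reads against 130, a ratio of 90.5 (95% exact interval 24.6 to 755). Of 27 semaphorin and axon guidance genes 16 were higher and 8 lower, among them the ephrin Efnb1 (2.80 ± 0.07) and the ephrin receptor Epha3 (-3.53 ± 0.14). Steroid genes gave 4 higher and 7 lower of 15 (8 and 5 at equal totals): Akr1c18, a progesterone-degrading reductase with close paralogs, fell by 5.30 on the log2 scale, and Sult1e1, which inactivates oestrogen, was higher, at 7821 ± 565 against 2588 ± 404.

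Matrix genes moved in both directions. The fibrillar collagen Col1a1 was at 50339, 62800.1 and 69276 in M_FIP and 240456, 267393 and 261959 in M_DPP4_pos (-2.09 ± 0.11), and Col1a1 alone made up 0.486% of all normalized reads in M_FIP and 1.57% in M_DPP4_pos. The 3 collagens with the largest increase were a chain of basement membranes, a chain of the zone beneath them and a beaded-filament chain. Col4a6 was at 821, 844 and 894 in M_FIP against 83.6, 61.1 and 63.9 (3.61 ± 0.11), Col15a1 at 10370.3, 12140.5 and 13071 against 1846, 1407 and 976 (3.11 ± 0.16), and Col6a5 at 14151, 14959 and 16518 against 2228, 1346 and 885 (3.45 ± 0.21). M_DPP4_pos library 1 was the highest of its group for all 3. Of 27 collagens 16 were higher and 7 lower, with a median of 0.63, and of 28 basement membrane and elastic fibre genes 20 were higher and 8 lower. In that list the laminin chain Lamc3 (4.05 ± 0.46) and the linker Egflam (3.88 ± 0.41) had the largest increases; without M_DPP4_pos library 1 or 3 Lamc3 was 4.75 or 3.38, and Egflam was 3.195 without library 3. Among 26 matrix proteases and inhibitors 13 were higher and 9 lower, with the inhibitor Timp4 (3.99 ± 0.26) opposite to Mmp3.

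Inflammatory genes were predominantly lower in M_FIP. The list of cytokines, receptors and growth factors of inflammation gave 17 lower and 3 higher of 22, 12 of them lower past 2-fold, with a median of -1.36 (15 lower and 4 higher at equal totals). Il33, an alarmin of stromal nuclei, was at 522, 466 and 456 in M_FIP and at 12218, 14384 and 12162 in M_DPP4_pos (-4.74 ± 0.07). Its receptor gene Il1rl1 was at 50.1, 46.4 and 34.9 against 13733, 15938 and 13264 (-8.33 ± 0.10; limma, adjusted p = 3.39e-17). Ligand and receptor of this pair were thus both low in the same population. The 3 members called higher were Tnf (2.16), Il1b (2.04) and the decoy receptor Tnfrsf11b (1.27), which fall outside the naming rule and were chosen after their values were seen; macrophage markers, described further on, were also higher in M_FIP, and their part in Tnf and Il1b was not tested.

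Chemokines gave 13 lower and 5 higher of 20, 10 of them lower past 2-fold, with a median of -1.04 (11 and 6 at equal totals). For 2 of the 20 the filter had fixed the direction, and the other 18 gave 12 lower and 4 higher. Cxcl5, a neutrophil attractant, was at 36.8, 64.2 and 26.8 in M_FIP and 5057, 5326 and 4854 in M_DPP4_pos (-6.95 ± 0.20). Cxcl13, a B cell attractant, was at 84.1, 67.8 and 109.7 against 6344, 6927 and 5975 (-6.21 ± 0.12). Cxcl3 and Ccl8 fell by 5.31 and 4.82. The abundant chemokines differed less: Ccl2, the monocyte attractant, averaged 24437 ± 1303 against 92119.8 ± 6178, and Cxcl1 39589.8 ± 687 against 106331 ± 8262, both chosen after their values were seen. The 3 M_FIP libraries still held 38824 to 40150.0 of Cxcl1, so this chemokine was lower but not near 0. Complement and acute phase genes gave 14 lower and 5 higher of 20, with C4b, which has a near-identical copy in C4a, at 3124 ± 913 against 52924 ± 2409.6 (-4.12 ± 0.13), Saa3 at -3.45 ± 0.09, and Hp at the opposite end.

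Interferon-stimulated genes and the genes of antigen presentation on MHC class I were the most uniform of the inflammatory lists. Of 23 interferon genes 20 were lower and none higher, with a median of -1.78, and at equal totals 19 were lower and 4 higher. All 15 MHC class I genes were lower (13 at equal totals, none higher), with a median of -1.11. Isg15, a ubiquitin-like protein, was at 178, 164 and 148 in M_FIP and 1510.2, 1569 and 1469 in M_DPP4_pos (-3.21 ± 0.07). Rsad2, the antiviral enzyme viperin, was at 254, 222 and 215 against 2021, 1843 and 1795 (-3.03 ± 0.07). Mx1, annotated as a transcribed pseudogene, was at 9.45, 8.03 and 9.75 against 166, 147 and 135 (-3.90 ± 0.19). It stayed under 10 in every M_FIP library, so the filter had fixed its direction. The other 22 interferon genes gave 19 lower and none higher. Nlrc5, the transactivator of MHC class I genes, was at 102, 72.2 and 78.0 against 806, 749.8 and 645 (-3.12 ± 0.12), and B2m, the MHC light chain, fell by 1.55. H2-K1 fell by 1.73, but reads of the class I heavy chains may be split among similar genes.

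Promoters of members of these inflammatory lists are shown with the letters of a motif named for the interferon response and of one named for NF-kappaB. Only members with a match could be shown, and Cxcl5, Ccl2 and Ifi44, also looked up, gave none. The 250 bases before the start site are from RefSeq (GRCm38.p6), 5′ to 3′ on the strand of the gene. Capitals mark the interferon-stimulated response element, searched as GAAANNGAAA on both strands. Isg15 lies at chr4:156200819-156201068 on the minus strand, with 3 overlapping matches, and Rsad2 at chr12:26456453-26456702 on the minus strand, with 1 match.
Isg15: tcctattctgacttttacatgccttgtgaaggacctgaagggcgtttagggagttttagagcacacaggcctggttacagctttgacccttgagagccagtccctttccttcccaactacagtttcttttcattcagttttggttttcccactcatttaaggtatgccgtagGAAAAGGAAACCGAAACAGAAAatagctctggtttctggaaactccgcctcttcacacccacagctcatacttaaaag
Rsad2: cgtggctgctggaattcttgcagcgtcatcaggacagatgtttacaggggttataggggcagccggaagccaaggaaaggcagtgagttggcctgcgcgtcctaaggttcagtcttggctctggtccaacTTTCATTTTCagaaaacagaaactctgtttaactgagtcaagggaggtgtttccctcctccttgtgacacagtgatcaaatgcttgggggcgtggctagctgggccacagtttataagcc
The motif was found in 7 of 16 interferon genes with a RefSeq promoter (43.8%), in 2 of 13 MHC class I genes (15.4%) and in 314 of 10059 tested genes with one (3.12%). Capitals in the next pair mark the NF-kappaB consensus, again on both strands, for Cxcl1 at chr5:90890995-90891244 and Il6 at chr5:30012864-30013113, both on the plus strand. Il6, a cytokine gene chosen with Cxcl1 after its values were seen, averaged 9418 ± 429 in M_FIP and 26345 ± 1967 in M_DPP4_pos (-1.48 ± 0.06).
Cxcl1: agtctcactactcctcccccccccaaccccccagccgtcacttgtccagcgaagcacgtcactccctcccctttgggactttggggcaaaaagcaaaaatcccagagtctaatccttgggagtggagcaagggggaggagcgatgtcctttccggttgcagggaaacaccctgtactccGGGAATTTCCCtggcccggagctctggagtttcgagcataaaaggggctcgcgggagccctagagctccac
Il6: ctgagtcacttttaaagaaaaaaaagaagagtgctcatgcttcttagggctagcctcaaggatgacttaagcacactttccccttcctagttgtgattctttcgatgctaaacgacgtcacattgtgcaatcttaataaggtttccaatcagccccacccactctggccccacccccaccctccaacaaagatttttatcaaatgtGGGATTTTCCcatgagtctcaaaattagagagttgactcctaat
That consensus was found in 5 of 13 chemokine genes (38.5%), 4 of 15 genes of the cytokine list (26.7%), 4 of 13 MHC class I genes (30.8%), 2 of 16 interferon genes (12.5%) and 1098 of all 10059 (10.9%). A match describes the letters of these windows and shows no binding.

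Lists of general cell state moved as well. Of 23 immediate early genes 19 were higher and 2 lower, with a median of 1.11. Fos was at 16320.2, 17992 and 19796 in M_FIP and 4722, 3705 and 3138 in M_DPP4_pos (2.24 ± 0.11), Egr2 rose by 2.59 ± 0.14, and Fosl1 was lower (-2.36 ± 0.05). Of 27 cell cycle genes 22 were higher and 1 lower, with a median of 1.28. For 3 of them the filter had fixed the direction, and the other 24 gave 19 higher and 1 lower. Mki67, a protein of dividing cells, was at 239, 299 and 322 against 62.2, 71.5 and 59.5 (2.13 ± 0.13). The 1 lower member, Ccnd1, the cyclin of cell cycle entry chosen after its values were seen, averaged 153 ± 11.7 and 446 ± 36.3. Of 18 contractile and CCN genes 13 were higher and 4 lower. Thbs1, a matricellular protein, was at 31756, 34953 and 33279 against 4945, 2997 and 2209 (3.38 ± 0.18), while Wisp2, also called Ccn5, fell by 3.89.

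Ribosomal protein genes were lower by similar amounts, while the lists of energy metabolism held members called in either direction. All 30 cytosolic ribosomal protein genes were lower in M_FIP, none past 2-fold, between -0.92 and -0.54 with a median of -0.74, and at equal totals all 30 were still lower, with a median of -0.36. Rps3 averaged 6108 ± 271 and 11580.4 ± 389. Ribosomal protein genes have many processed copies, so single values are uncertain. The genes of oxidative phosphorylation gave 3 higher and 13 lower of 29 with a median of -0.10, but 17 higher and 2 lower at equal totals, so they had no direction independent of scaling. Glycolysis and hypoxia genes gave 15 lower and 1 higher of 21 (10 and 7 at equal totals). Their median was -0.38, and -0.003 at equal totals, where that of all genes was 0.34. Among the lower members were Hk2, the hexokinase of insulin-sensitive tissue (-1.79 ± 0.05), and the angiogenic factor Vegfa (-1.31 ± 0.06). Of 22 glutathione and oxidative stress genes 13 were lower and 7 higher (10 and 9 at equal totals). Hmox1, the haem-degrading enzyme, was at 889, 928 and 1042 in M_FIP and 11084, 12859 and 13681 in M_DPP4_pos (-3.71 ± 0.07), and the transferase Gsta3 was opposite (3.78 ± 0.20).

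**Figure D3:**
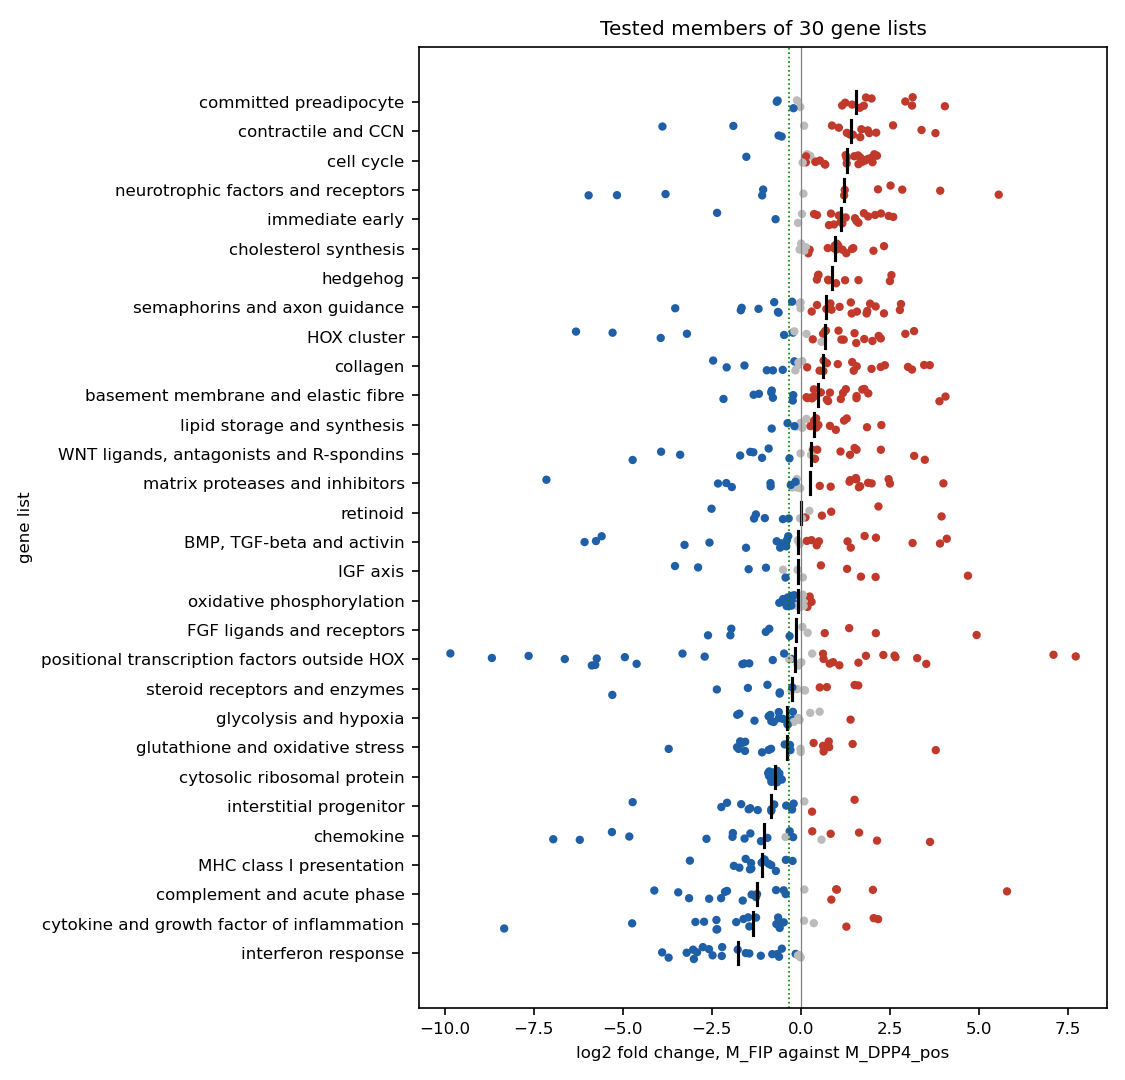
Log2 fold change (M_FIP minus M_DPP4_pos) of every tested member of 30 gene lists, with red points called higher, blue points called lower, grey points not called and a black bar at each median. The dotted green line is drawn left of 0 by 0.34, the median log2 fold change of all genes at equal library totals. The interferon, MHC class I and ribosomal protein lists lie below 0, and the hedgehog, cholesterol and cell cycle lists mostly above it.

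Markers of other cell types were measured in the same libraries, since a sort can carry other cells along. Mesothelial markers summed to 345 to 493 in M_FIP and 40.8 to 56.5 in M_DPP4_pos, and all 6 tested were higher, but 5 of them stayed under 10 in every M_DPP4_pos library, so that the filter fixed their direction. Upk3b was at 173, 166 and 128 against 7.91, 1.15 and 5.51 (4.96 ± 0.39, and 4.35 without M_DPP4_pos library 2), and Msln averaged 89.7 ± 17.2 against 2.63 ± 0.658. Mesothelium expresses Wt1 too, and its part in the Wt1 difference was not tested. Mural markers summed to 1932 to 2176 against 622 to 781, with 6 of 8 higher, among them the muscle filament Des (3.40 ± 0.17), and 2 lower, Abcc9 (-1.04 ± 0.12) and Cspg4 (-0.77 ± 0.15). Endothelial markers summed to 6388 to 7447 against 4243 to 4552. Of the 10 endothelial genes 9 were higher, all past 2-fold, among them the vascular cadherin Cdh5 (2.80 ± 0.14). The list median was 2.69 and the member not called was at 0.07, so the sum does not describe the 9 genes. Macrophage markers summed to 439 to 619 against 294 to 371, with 6 of 11 higher and 1 lower. For 2 of the 11 the filter had fixed the direction, and the other 9 gave 4 higher and 1 lower. C1qa (2.70 ± 0.51) was 3.31 and 1.93 without M_DPP4_pos library 1 or 2. Their part in the gene lists above was not tested.

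The remaining marker lists were at low levels. Lymphocyte markers summed to 7.56 to 13.4 in M_FIP and 44.1 to 71.5 in M_DPP4_pos, and epithelial markers to 48.8 to 51.7 and 98.1 to 118, with Krt17 at 0 in all 6 libraries. Epididymal markers summed to 9.75 to 20.8 and 53.1 to 69.2, and Crisp1, Crisp4, Lcn5, Lcn9 and Spag11b had no read in the 6 libraries, which allows up to 3 reads of each. Skeletal muscle markers summed to 121 to 155 and 62.3 to 122, with Myod1, Myf5 and Pax7 at 0. Schwann cell markers summed to 5577 to 6089 and 4888 to 5678, of which Pmp22, also made by mesenchymal cells, averaged 5774 and 4777. The markers of PDGFRb-positive mesenchymal cells summed to 220900 to 234900 in M_FIP and 433700 to 468100 in M_DPP4_pos. Of that sum Col1a1 alone averaged 60805 and 256600. The 8 members gave 3 higher, 3 lower and 2 not called, so the sum does not describe the list.

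**Figure D4:**
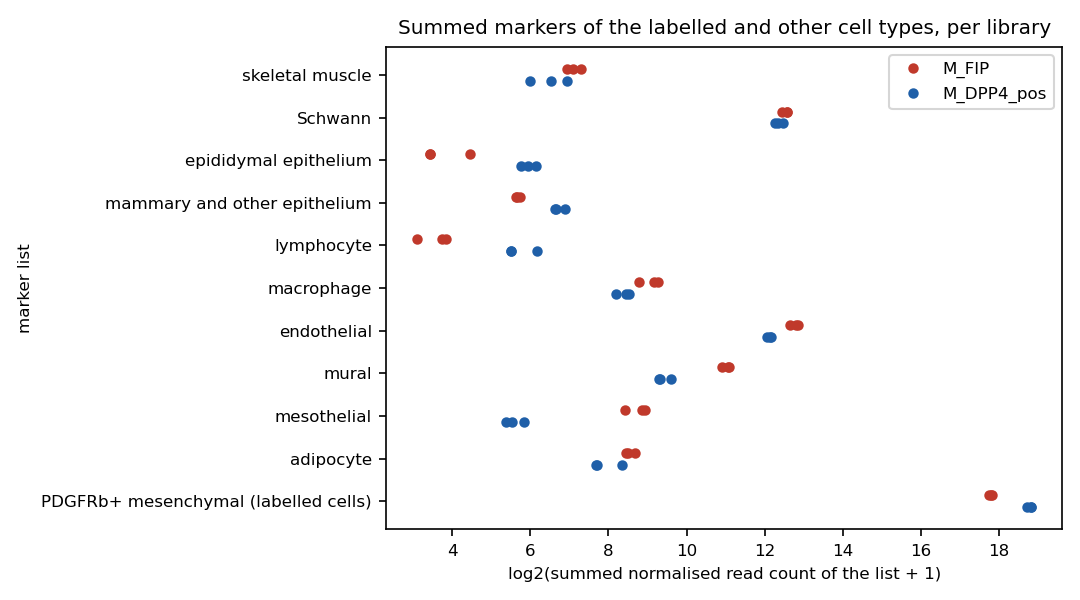
Summed normalized value of each marker list in each library, on a log2(value + 1) axis, with red points for M_FIP and blue points for M_DPP4_pos. Adipocyte, mesothelial, mural, endothelial and macrophage sums are higher in all 3 M_FIP libraries than in any M_DPP4_pos library. Lymphocyte, epithelial, epididymal and PDGFRb-positive mesenchymal sums are lower in all 3.

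The female comparison of F_FIP with F_DPP4_pos used 6 other libraries and called 6578 of 12729 genes (51.7%), with 3219 higher (25.3%) and 3359 lower (26.4%), and 828 higher (6.5%) and 774 lower (6.08%) past 2-fold. Across the 12420 genes tested in both sexes the 2 log2 fold changes had a Pearson's r of 0.753 and a Spearman's rho of 0.712; genes are not independent replicates. Of the genes past 2-fold, 581 were higher in both sexes, which is 34.3% of the male list and 70.2% of the female list, and 507 were lower in both (34.2% and 65.5%), while 32 went in opposite directions. Of the 15 leading genes higher in M_FIP, 12 were also called higher in females and 3, Cadps and Enpp6 among them, did not pass the female filter; all 15 leading lower genes were called lower in females. Tcf21 averaged 3019 in F_FIP and 49.0 in F_DPP4_pos, a log2 fold change of 5.97, and Tbx15 averaged 35.4 and 1407 (-5.40).

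The difference itself was tested with an interaction term over the 12 libraries. It was called for 5896 of 13341 genes (44.2%). For 12 of the 15 leading higher genes and all 15 leading lower genes the male difference was the larger; these genes were chosen for their male fold changes, which favours this outcome, so the count supports nothing. For Tcf21 the male minus female difference was 1.74 ± 0.67 (limma, adjusted p = 0.0438). Cxcl5 gave the clearest case among the inflammatory genes: F_DPP4_pos averaged 125 ± 24.9 (SD, n = 3) where M_DPP4_pos averaged 5079 ± 237, and the FIP groups averaged 64.4 and 42.6, a male minus female difference of -6.02 ± 0.30 (limma, adjusted p = 4.43e-10). The tail-ward HOX genes also differed: Hoxc10 averaged 262 ± 18.9 in F_FIP and 245 ± 37.4 in F_DPP4_pos, where M_FIP had 5.02, an interaction of -5.40 ± 0.29. Hoxa10 was higher in F_FIP (131 ± 8.53) than in F_DPP4_pos (57.8 ± 5.08), opposite to the males. In females groups 1 to 8 gave 8 higher and 3 lower of 15, and groups 9 to 13 gave 2 higher and 1 lower of 6. Hoxc8 changed sign, 729 against 333 in males and 125 against 262 in females.

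**Figure D5:**
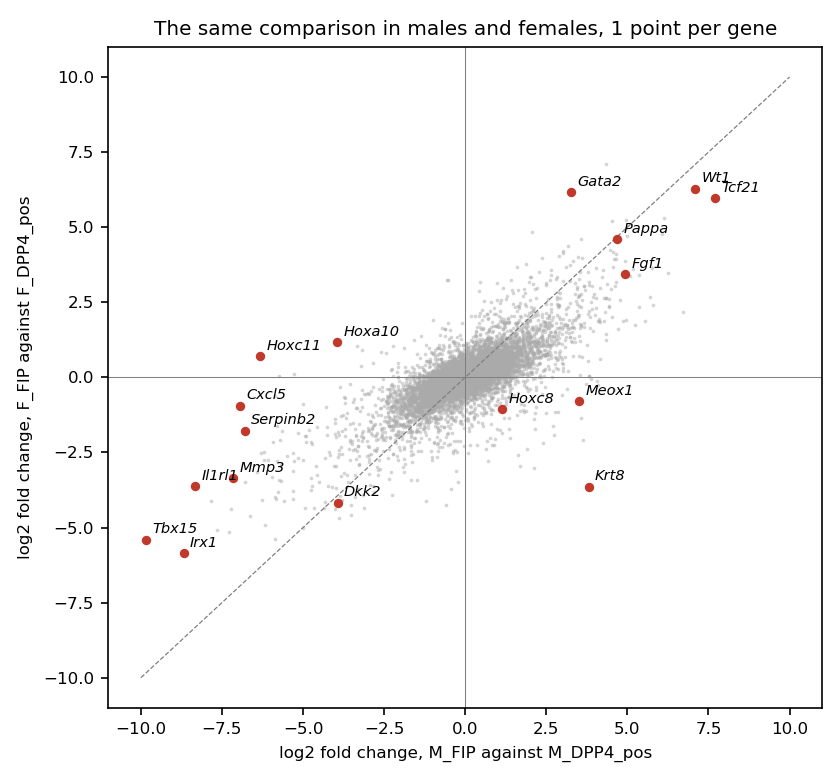
Log2 fold change of gonadal FIP against inguinal DPP4_pos in females (vertical) against males (horizontal) for 12420 genes, with a dashed line of equal change and chosen genes in red. Tcf21 and Wt1 lie high in both sexes, Tbx15 and Irx1 low in both, and Hoxa10, Hoxc8 and Krt8 lie in the quadrants of opposite sign.

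The other male depot pair, M_APC against M_DPP4_neg, called 8497 of 13232 genes (64.2%), 4264 higher (32.2%) and 4233 lower (32%), and past 2-fold 1519 higher (11.5%) and 1707 lower (12.9%). Its log2 fold changes had a Pearson's r of 0.783 and a Spearman's rho of 0.760 with those of M_FIP against M_DPP4_pos over 12592 genes. Past 2-fold, 855 genes were higher in both pairs (50.5% of the list described here and 56.3% of the other) and 939 lower in both (63.3% and 55.0%). Of the 15 leading higher genes 13 were also called higher in that pair and 2 (Dsp and Mgam) did not pass its filter, and 14 of the 15 leading lower genes were called lower. The exception was Itgb7, which averaged 1615 ± 247 in M_DPP4_pos but 32.3 ± 7.06 in M_DPP4_neg. Of the HOX genes of groups 1 to 8, 15 of 18 tested were higher and 1 lower, and Hoxc10 averaged 7.11 ± 3.54 in M_APC and 421 ± 13.8 in M_DPP4_neg. The interaction between the pairs was called for 3950 of 13690 genes (28.9%). Fabp4, Cd36 and Sparcl1 were higher in M_FIP than in M_DPP4_pos but had log2 fold changes of 0.01, 0.02 and 0.11 between M_APC and M_DPP4_neg, none of them called; the differences between the pairs were 2.92 ± 0.22, 3.12 ± 0.15 and 3.93 ± 0.20, each called (limma).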

How the data were processed

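Bulk RNA sequencing libraries of PDGFRb-positive adipose cells (3 per group) were made from 0.5 ug of total RNA with the NEBNext Ultra II RNA kit after Trizol extraction, per the labels' protocols. The authors deposited 1 table of signal values, which are gene read counts divided by a size factor per library; Trim Galore 0.4.1, HISAT2 2.0.1, featureCounts 1.4.6, DESeq2 1.6.3 and the builds GRCm38 and mm10 are named per the submitters' processing notes, and their roles, the annotation and the strand setting are not given in the sources used here. Whole reads were recovered from the deposited values (100% of values whole within 0.01 read), and the count test edgeR called 4961 genes higher and 4712 lower on them. Columns were matched to samples by title.

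Rows without a gene symbol (958, no more than 0.0765% of the reads in any library, 99 of which would have passed the filter) were left out, and 26 symbols turned into dates in the table were replaced by their RefSeq symbols. Genes at 10 or more in at least 3 of the libraries compared were tested with limma 3.58.1 (trend) on log2(value + 1) in R 4.3.3, with 1 mean per group and p-values adjusted by Benjamini and Hochberg's method. The same fit was made for the females, for M_APC against M_DPP4_neg, and for the 2 interactions over 12 libraries each. A fold change on this scale understates the change of low genes, and more so for values at equal library totals. Alternatives were edgeR 4.0.16 and DESeq2 1.42.0 on recovered reads, quantile normalization, pseudocounts of 0.1 and 10, no filter, a minimum of 50, all 24 libraries, the replicate block, each library left out, and values at equal library totals, the last added after the data were seen. The scripts were tested on simulated data. Named genes were the 15 highest and 15 lowest called genes without overlap and with a mean of at least 100, up to 4 called members per list with the largest change, all HOX and positional factors, the 6 highest and 6 lowest genes of each interaction, and label genes; a few genes that meet this rule are not reported here. The members, lists and rule were chosen with earlier results of these data known. Groups of 3 limit the precision, and exact intervals (95%) cover counting error only.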

Additional observations from a re-analysis of the deposited data

Results flagged for a closer look

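The difference between gonadal FIP and inguinal DPP4_pos cells was itself compared between males and females with an interaction term (limma), which was called for 5896 genes. The size given for each gene below is the male log2 fold change minus the female one. Genes with large positive values were Krt8 (7.45), Cadps (6.50), Cldn4 (6.24), Enpp6 (5.38) and Cldn11 (5.36). Cadps and Enpp6 averaged 308 and 143 in M_FIP and at most 8.15 in the other 3 groups, so among these 4 groups they were high in M_FIP alone; they were also high in the partner gonadal group M_APC, at 466 and 325, and Enpp6 was at 113 in F_DPP4_neg. Krt8, Cldn4 and Cldn11 were instead high in F_DPP4_pos, at 141, 127 and 411.5. Epithelial markers summed to 212 to 371 there, against 20.8 to 23.9 in F_FIP. Cldn4 belongs to that marker list, so the sum contains its own value and is no separate measure for it. The part of epithelial cells in these genes was not tested.

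Among genes with a mean of at least 100 in 1 of the groups and no predicted or clone name, the largest negative values were those of Hoxa11os (-7.09), Cntn1 (-6.83), Cxcl5 (-6.02), Hoxc10 (-5.40), Il18r1 (-5.27) and Hoxa10 (-5.11). Hoxa11os, an antisense transcript whose reads cannot be separated from Hoxa11 without the strand setting, averaged 124 in F_FIP and 0.275 to 1.15 in the other 3 groups, and Cntn1, a neural adhesion protein, averaged 858 in F_FIP and 1.22 to 32.5 in the others. Il18r1, an interleukin 18 receptor chain, was high in M_DPP4_pos, at 331.

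Other HOX genes called in this interaction were Hoxc11 (-7.02), Hoxa9 (-3.59), Hoxd9 (-1.97), Hoxc8 (2.20), Hoxa5 (1.55), Hoxb5 (1.42), Hoxa3 (1.30), Hoxc5 (1.19), Hoxa7 (1.15) and Hoxb2 (1.06), together with the T-box gene Tbx18 (-0.66). Macrophage genes also differed: the values were positive for C1qa (4.33), Mrc1 (4.01), C1qc (2.97) and Lyz2 (2.76). C1qa, C1qc and Mrc1 were called past 2-fold in opposite directions, higher in M_FIP and lower in F_FIP. The summed macrophage markers were 439 to 619 in M_FIP and 294 to 371 in M_DPP4_pos but 184.5 to 247 in F_FIP and 331 to 404 in F_DPP4_pos. Smaller differences were called for Pdgfrb (0.75), Aldh1a3 (0.50) and the Y-linked Ddx3y (-1.19), which is at 49.7 and 30.4 in the female groups.

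The same term between the 2 male pairs, M_FIP against M_DPP4_pos and M_APC against M_DPP4_neg, was called for 3950 genes. Under the same limits, its 6 highest genes are made by neutrophils and their precursors: Ltf (8.81), S100a9 (8.51), Ngp (7.58), S100a8 (7.32), Chil3 (6.36) and Camp (6.06). They averaged at most 3.06 in M_FIP, M_DPP4_pos and M_APC and 131 (Camp) to 672 (S100a9) in M_DPP4_neg, and with edgeR on recovered reads all but Ltf lost the call. The 6 lowest were Mal2 (-6.62), Aldh1a3 (-5.96), Itgb7 (-5.49), Bmp3 (-4.81), Gpr1 (-4.69) and Stab1 (-4.50). Aldh1a3, a retinoic acid synthase, averaged 3378 and 3097 in the pair described here, and 3502 and 52.5 in the other, so its low level belongs to M_DPP4_neg. Stab1, a scavenger receptor, averaged 997 in M_DPP4_pos and 43.8 in M_DPP4_neg.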

How the results depend on the processing

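Of the 222 named genes considered here, 204 kept their call and direction under every alternative that gave a value. Over all alternatives 3771 to 7534 genes were called higher and 2839 to 5222 lower; the extremes of 7534 and 2839 came from values at equal library totals, chosen after the data were seen. Equal library totals also turned the sign of Hoxc6 (0.14), Tbx18 (0.11) and Cd9 (0.35), and quantile normalization that of Cd9 (0.32). At equal totals the median log2 fold change of all genes was 0.34, but the change was not the same for every gene. Values there were per 1000000 reads before 1 was added, so the added 1 weighed more on low genes. Tbx15 went from -9.84 to -6.90, Hoxc11 from -6.32 to -2.76 and Cadps from 7.08 to 4.53. Hoxd9, which gained its call there, went from 0.57 to 0.54. The cause of the sign changes was not tested for equal totals or for quantile normalization. Leaving out each library in turn gave 3981 to 4544 higher and 4504 to 4754 lower. With the replicate number as a block 4673 were higher and 4884 lower. No pairing by number was visible: same-numbered libraries' deviations correlated at -0.0123, 0.0271 and -0.00591, and not every library correlated best with its own number. With 3 libraries per group this cannot settle whether same-numbered libraries share an origin. With 1 library left out, 23 to 25 of the 222 named genes no longer passed the filter and gave no value, as did 36 at a minimum of 50. For this reason 1 of 6 mesothelial markers was still called without any 1 M_FIP library, and 2 at a minimum of 50, while 10 were called with no filter. In the interactions, 6 of 12 named genes gave none without an M_DPP4_neg library, 2 without an M_DPP4_pos library, and 1 of the 11 of the sex interaction without an F library. Hoxd9 was called by edgeR (0.66). Depth limits the genes at a few reads in 1 group, whose ratios have wide intervals.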

Other observations

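The interleukin 1 receptor genes lie next to each other on chromosome 1, between 40084692 and 40500854 (GRCm38, 416 kb), and were chosen after their values were seen. All 5 tested genes of the region were called lower in M_FIP (limma), where 38% of all genes were lower. The choice of region favours this outcome, so the count supports nothing. Il18r1 stayed under 10 in every M_FIP library, so the filter had fixed its direction. Il1r2, a decoy receptor that binds interleukin 1 without signalling, was at 29.3, 33.0 and 32.5 in M_FIP and 7159.9, 7399 and 7717 in M_DPP4_pos, a log2 fold change of -7.83 ± 0.07. Il1r1, the signalling receptor, kept a high level in both, at 3426, 3129 and 3388 against 17298, 16858 and 17409.7 (-2.38 ± 0.05). Il1rl2, the interleukin 36 receptor, and Il18r1 had log2 fold changes of -2.96 and -5.87, beside the -8.33 of Il1rl1. In females the same 5 genes averaged 232 against 3925 (Il1r2), 4146 against 6502 (Il1r1), 1297 against 4402 (Il1rl2), 248 against 3114 (Il1rl1) and 49.5 against 74.0 (Il18r1) in F_FIP and F_DPP4_pos. Neighbouring genes are not independent of each other.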
